A study of Mus musculus with 4 samples.

Results

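The genes described here are the ligands Egf, Tgfa, Areg, Ereg, Hbegf, Btc and Nrg1 of the epidermal growth factor (EGF) family and the receptors Egfr, Erbb2 and Erbb3. A gene was taken as measured where a probe set of the array carried exactly its symbol in the platform annotation. By this rule 9 of the 10 genes, 6 ligands and 3 receptors, were measured, out of 18193 genes in all, and 20 probe sets read them. No probe set carried the symbol Areg, and this gene is not analysed here. The samples were RNA of the epithelium of the gastric corpus, the acid-secreting part of the stomach, from wild-type mice aged 6 weeks. The groups were tamoxifen after 12 hours, tamoxifen after 2.5 days, tamoxifen after 4.5 days, and vehicle after 2.5 days, with 1 array each of RNA pooled from 3 mice. Tamoxifen, a selective estrogen receptor modulator, was given into the peritoneum at 5 mg per 20 g of body weight, and the vehicle was 90% sunflower seed oil with 10% ethanol. Per the labels, the treatment served to bring about SPEM, short for spasmolytic polypeptide-expressing metaplasia, in which corpus glands come to carry transcripts of mucous neck cells.

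The mice were of the strains FVB/N, BALB/c and C57BL/6 by the labels, which tie no strain to an array, and they say that injections ran for 1 or 3 days without saying which array had which. Because each group was 1 array of pooled RNA, nothing is known of how mice varied, no test across samples exists and no p-value is given. The single vehicle array served all 3 comparisons, so these are not independent of each other, and it matches only the 2.5-day tamoxifen array in time.

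EGF family ligands are made as membrane-anchored precursors, and metalloproteases of the ADAM family release them. EGF, TGFα, amphiregulin, epiregulin, HB-EGF and betacellulin bind the receptor EGFR, some of them ERBB4 as well, whereas neuregulin 1 binds ERBB3 and ERBB4. ERBB2 has no known ligand of its own and pairs with the other receptors, and ERBB3 has a weak kinase and signals mainly through its partners. In the stomach, EGFR ligands are known to curb acid secretion and to drive growth and repair of the mucosa.

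Expression is given as log2 RMA values, where a step of 1 is 2-fold, and differences are tamoxifen minus vehicle on that log2 scale. Levels of different genes cannot be ranked against each other on such an array, because each probe set has its own brightness. Array medians over all probe sets lay between 5.30 and 5.34, and a gene counted as expressed in a comparison if the brighter of the 2 arrays was at or above its own array's median. As gauges of technical error, 18 hybridisation controls differed between tamoxifen and vehicle arrays with an SD of 0.08 to 0.10. The 27 poly-A controls differed more, with an SD of 0.17 to 0.20 and single differences of up to 0.72. The most alike arrays, those at 4.5 and 2.5 days, differed over expressed genes with a robust SD of 0.15. The 12-hour array stood apart from vehicle in genes of other tissues. All 7 pancreatic acinar markers were at least 2-fold higher there, with a median difference of 7.25, and 5 of 6 markers of the upper squamous layers were at least 2-fold lower, with a median of -5.64. At 2.5 and 4.5 days the medians of both lists lay between -0.80 and -0.20, with no acinar marker past 2-fold and at most 2 squamous ones lower and 1 higher. In vehicle all 9 parietal, 6 chief, 5 surface mucous and 5 endocrine markers of the corpus were above the array median, but so were all 6 smooth muscle and 6 fibroblast markers, so the pools were not epithelium alone. The part of these tissues in the 12-hour values of the EGF family was not tested.

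At 2.5 and 4.5 days the ligands Egf, Ereg and Nrg1 lay far from vehicle, while the receptors stayed close to their vehicle levels. At 12 hours there was no such contrast, with a median absolute difference of 0.30 over the receptors and 0.22 over the ligands. Egf was at least 2-fold lower on all 3 tamoxifen arrays. Ereg and Nrg1 were at least 2-fold higher at 2.5 and 4.5 days. Hbegf and Btc were higher by less than 2-fold at every time, Tgfa differed by at most 0.16, and none of the receptors differed by more than 0.34. In counts, 1 of the 9 genes (8 of them expressed) was at least 2-fold lower at 12 hours and none higher. Of the 12253 expressed genes 1.92% were lower and 0.996% higher there, 2.91% in all. At 2.5 days all 9 genes were expressed and 3 of them passed 2-fold, 2 higher and 1 lower. Of 12295 expressed genes 3.32% were higher and 1.94% lower, 5.25% in all. At 4.5 days again 3 of 9 passed it, 2 higher and 1 lower, where 3.80% of 12303 expressed genes were higher and 2.72% lower, 6.53% in all. All of the genes past 2-fold were ligands. The median difference over the 9 genes was 0.16, 0.09 and 0.13 at 12 hours, 2.5 and 4.5 days, beside -0.02 at each time over all genes.

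**Figure D1:**
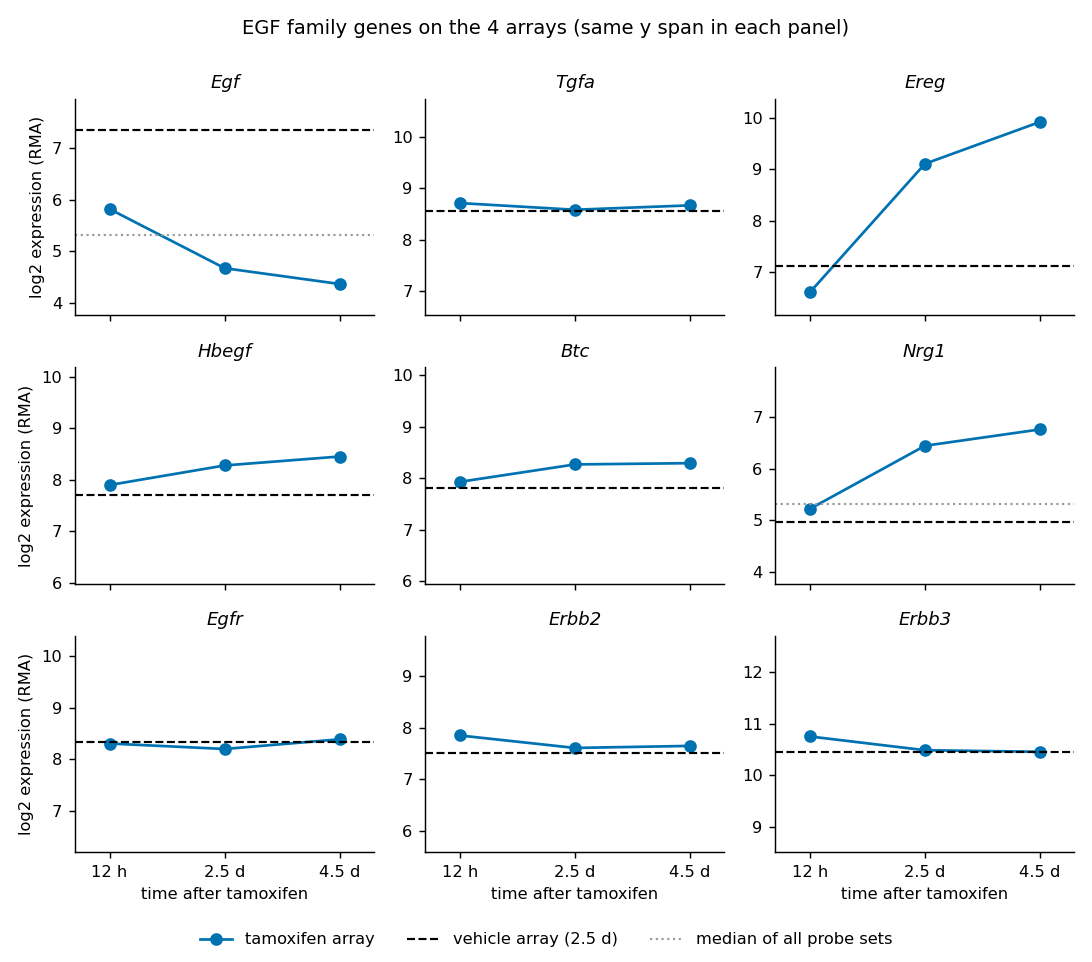
Each panel plots 1 gene's log2 RMA expression (vertical axis) on the 3 tamoxifen arrays by time (points), with the level on the vehicle array as a dashed line and, where it falls in the panel, the mean of the 4 array medians as a dotted line; the vertical span is the same in all panels and each point is 1 array of 3 pooled mice. Egf lies below its vehicle line at all times, and Ereg and Nrg1 lie far above theirs at 2.5 and 4.5 days. Tgfa, Egfr, Erbb2 and Erbb3 stay within 0.34 of theirs.

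Egf encodes epidermal growth factor, the founding ligand of EGFR. Its level was 5.82 at 12 hours, 4.68 at 2.5 days and 4.37 at 4.5 days after tamoxifen, against 7.35 in vehicle. All 3 tamoxifen arrays were below vehicle, and the later the array the lower the level. The differences were -1.53, -2.68 and -2.98, which correspond to levels 2.89-fold, 6.39-fold and 7.91-fold lower than in vehicle. At 4.5 days only 13 of 12303 expressed genes, Egf included, differed downwards by as much. At 2.5 and 4.5 days Egf lay below its array's median, in the range where RMA compresses differences, so the size of these decreases is uncertain. A single probe set read Egf, and its difference could not be checked against another.

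Markers of other gland cells moved on the same arrays as Egf. Of 9 parietal cell markers 7, 7 and 6 were at least 2-fold lower than vehicle at 12 hours, 2.5 and 4.5 days. Their levels, summed before taking log2, were 14.35, 14.00 and 14.26 against 15.41 in vehicle. Of 6 chief cell markers 1, 4 and 5 were at least 2-fold lower, and their summed levels were 15.68, 14.73 and 13.35 against 15.80. The 5 surface mucous markers had no member past 2-fold at any time. Tff2 was the mucous neck marker measured, and it differed from vehicle by -0.09, -0.24 and -0.06. In bulk tissue, fewer cells of a type and less RNA per cell cannot be told apart, and the part of these cell types in the Egf values was not tested.

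By the distance between the 3 differences from vehicle, the expressed genes most alike to Egf among 12444 were Lpl, Adhfe1 and Aass. Lpl, which encodes lipoprotein lipase, differed by -1.50, -2.51 and -2.94 at 12 hours, 2.5 and 4.5 days, a distance of 0.17 from Egf. Adhfe1 encodes an alcohol dehydrogenase that contains iron, and its differences of -1.55, -2.39 and -2.84 lay at a distance of 0.32. Aass, an enzyme of lysine breakdown, was the third, with -1.66, -2.21 and -2.76 and a distance of 0.53. These likenesses rest on 4 arrays with a shared vehicle array and describe these pools only.

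Ereg encodes epiregulin, a ligand of EGFR and ERBB4 known for its induction in inflamed and regenerating epithelia. Its level was 6.61 at 12 hours, 9.11 at 2.5 days and 9.92 at 4.5 days after tamoxifen, against 7.11 in vehicle. The 12-hour array was thus below vehicle, by 0.51, and both later arrays were above it. The differences of 1.99 and 2.80 at 2.5 and 4.5 days correspond to 3.97-fold and 6.98-fold. At 4.5 days 11 of 12303 expressed genes, Ereg included, were higher by at least as much, and at 2.5 days 36 of 12295. Ereg was above the array median on all 4 arrays and was read by a single probe set.

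Between tamoxifen arrays, Ereg was 2.50 higher at 2.5 days than at 12 hours, and 0.81 higher at 4.5 days than at 2.5 days. From 12 hours to 2.5 days, 3 of the 9 genes passed 2-fold, Ereg and Nrg1 higher and Egf lower, against 3.24% of expressed genes. From 2.5 to 4.5 days none of the 9 did, against 0.429% of expressed genes. Of the 12117 genes expressed in that later step, 44 were higher by at least as much as Ereg. Both squamous lists were lower at 12 hours than at any other time, and the 5 basal squamous markers had a median difference from vehicle of -1.11 there, 0.07 at 2.5 days and 0.35 at 4.5 days. Whether squamous tissue had a part in the low 12-hour value of Ereg was not tested.

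The genes most alike to Ereg in pattern were Cemip, Dmp1 and Depdc1a. Cemip, which encodes a protein that acts in hyaluronan breakdown, differed from vehicle by -0.41, 1.66 and 2.78 at 12 hours, 2.5 and 4.5 days, a distance of 0.34. Dmp1, known as a matrix protein gene of bone and dentin, differed by -0.71, 2.28 and 3.30, a distance of 0.61. Depdc1a differed by -0.68, 2.24 and 2.25, a distance of 0.62. All of these were dim in vehicle, at 4.93, 4.94 and 4.91, whereas Ereg was above the array median there. By the RefSeq gene table, Ereg lies on chromosome 5 in a row of family genes in the order Epgn, Ereg, Areg and Btc, with no other protein-coding gene between them. Of these, Btc did not share the size of change of Ereg, at 0.12, 0.46 and 0.48, or 0.63, 0.89 and 0.95 by its dimmer probe set. Epgn (epigen) was at -0.12, 0.03 and 0.25. It lay below the array median on all 4 arrays, so these values do not show whether it changed. Areg was not measured.

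Nrg1 encodes neuregulin 1, a ligand of ERBB3 and ERBB4. Its level was 5.22 at 12 hours, 6.45 at 2.5 days and 6.76 at 4.5 days after tamoxifen, against 4.97 in vehicle. The later 2 tamoxifen arrays were above both the 12-hour and the vehicle array, by 1 or more. The differences from vehicle were 0.25, 1.48 and 1.79, of which the later ones correspond to 2.78-fold and 3.47-fold. On the vehicle and the 12-hour array Nrg1 lay below the median, where RMA compresses differences, and it was read by 1 probe set. At 4.5 days 80 of 12303 expressed genes, Nrg1 included, were higher by at least as much.

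Exo1, Chrdl2 and Brca1 were the genes most alike to Nrg1. Exo1, a nuclease of DNA repair, differed by 0.24, 1.60 and 1.79 at 12 hours, 2.5 and 4.5 days, a distance of 0.13. Chrdl2, which encodes a chordin-like protein, differed by 0.24, 1.38 and 1.65, a distance of 0.18. Brca1, another DNA repair gene, differed by 0.34, 1.58 and 1.64, a distance of 0.21. Exo1 and Chrdl2 were below the array median in vehicle, at 4.67 and 3.88, and at 12 hours, at 4.91 and 4.11. Chrdl2 was also below it at 2.5 days, at 5.25, so these likenesses rest in part on dim signals. Brca1 was brighter, at 5.68 in vehicle. Fibroblasts and cells of the nerves are known sources of neuregulin 1 in other tissues. The 3 glial markers measured, S100b, Sox10 and Gfap, had median differences of 0.09, -0.30 and -0.36, with no member past 2-fold. At 2.5 and 4.5 days S100b and Gfap lay below the array median, so these markers say little about glia there. The 6 fibroblast markers had medians of -0.30, 0.01 and 0.17, with 1 member at least 2-fold lower at 12 hours and none past 2-fold later. Their summed levels were 14.12, 14.40 and 14.50 against 14.37 in vehicle. The part of glia and fibroblasts in the Nrg1 values was not tested.

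**Figure D2:**
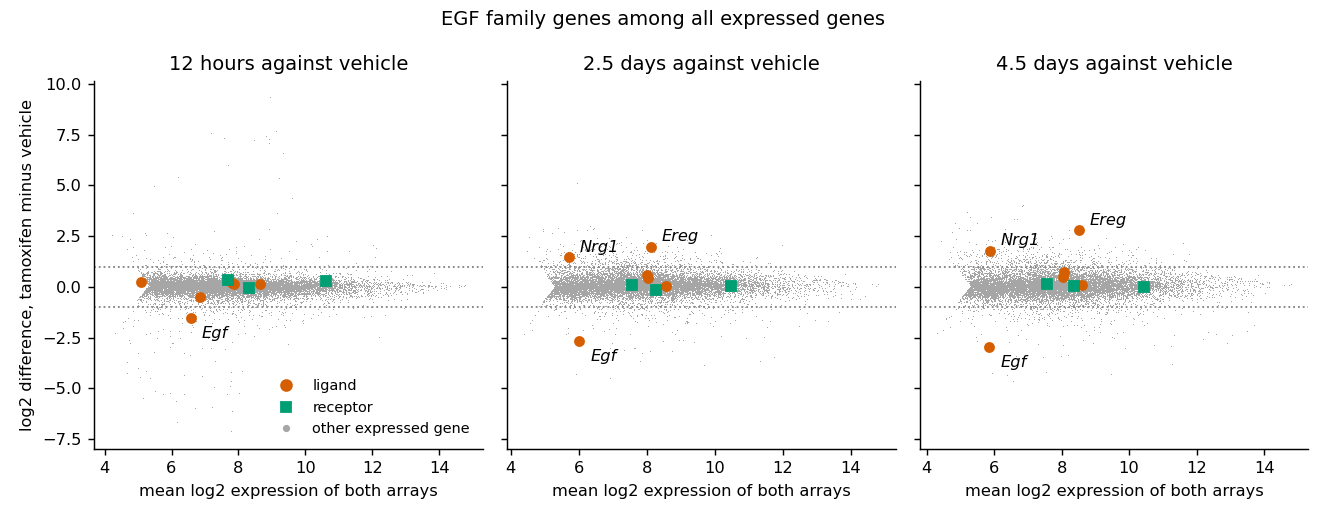
Each panel plots, for all expressed genes of a comparison (grey), the log2 difference of the tamoxifen array minus the vehicle array (vertical axis) against the mean log2 expression of both arrays (horizontal axis), with ligands as orange circles, receptors as green squares and dotted lines at 2-fold. Egf is labelled below the lower line in all 3 panels, Ereg and Nrg1 above the upper line at 2.5 and 4.5 days, and the receptors lie within the grey cloud.

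Hbegf encodes heparin-binding EGF-like growth factor, which binds EGFR and ERBB4. Its level was 7.90 at 12 hours, 8.28 at 2.5 days and 8.45 at 4.5 days after tamoxifen, against 7.71 in vehicle. All 3 tamoxifen arrays were above vehicle, by 0.19, 0.57 and 0.74. A difference of that size or larger in either direction was found for 16.5% of expressed genes at 2.5 days and 12.4% at 4.5 days, so Hbegf did not stand out from them. Its other probe set, also above the array median on every array, gave 0.63, 0.54 and 0.77. The probe sets were nearly level with each other at 2.5 and 4.5 days and lay further apart at 12 hours.

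Btc encodes betacellulin, a further ligand of EGFR and ERBB4. Its level was 7.93 at 12 hours, 8.26 at 2.5 days and 8.29 at 4.5 days after tamoxifen, against 7.80 in vehicle. It was above vehicle on all 3 tamoxifen arrays, by 0.12, 0.46 and 0.48, and 25.9% of expressed genes differed by as much at 4.5 days. A dimmer probe set, below the array median on all 4 arrays, gave larger differences of 0.63, 0.89 and 0.95.

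Tgfa encodes transforming growth factor α, an EGFR ligand whose overproduction in humans is linked to Ménétrier's disease, an overgrowth of the gastric mucosa. Its level was 8.71 at 12 hours, 8.58 at 2.5 days and 8.67 at 4.5 days after tamoxifen, against 8.55 in vehicle. The 4 levels lay within 0.16 of each other, close to the robust SD between the most alike arrays. Its other 2 probe sets gave differences from -0.18 to 0.24 over the 3 times, on both sides of 0.

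Egfr, Erbb2 and Erbb3 encode the receptors. Egfr was at 8.31, 8.20 and 8.39 at 12 hours, 2.5 and 4.5 days after tamoxifen, against 8.35 in vehicle. Its differences of -0.04, -0.15 and 0.04 were no larger than the robust SD between the most alike arrays. Of its 7 probe sets, 3 were above the array median on all 4 arrays, and over these the differences lay between -0.04 and 0.08 at 12 hours, between -0.31 and -0.03 at 2.5 days and between -0.18 and 0.05 at 4.5 days. Erbb2 was at 7.85, 7.60 and 7.64 after tamoxifen, against 7.51 in vehicle, so its widest difference was 0.34, at 12 hours. Erbb3 was at 10.75, 10.49 and 10.46 after tamoxifen, against 10.46 in vehicle. Its difference of 0.30 at 12 hours was the widest, and at 2.5 and 4.5 days it was 0.03 and 0.00. Both genes were thus slightly higher at 12 hours than on the other arrays, on the array that stood apart in pancreatic and squamous genes. The remaining receptor gene of the family, Erbb4, was below the array median on all 4 arrays.

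**Figure D3:**
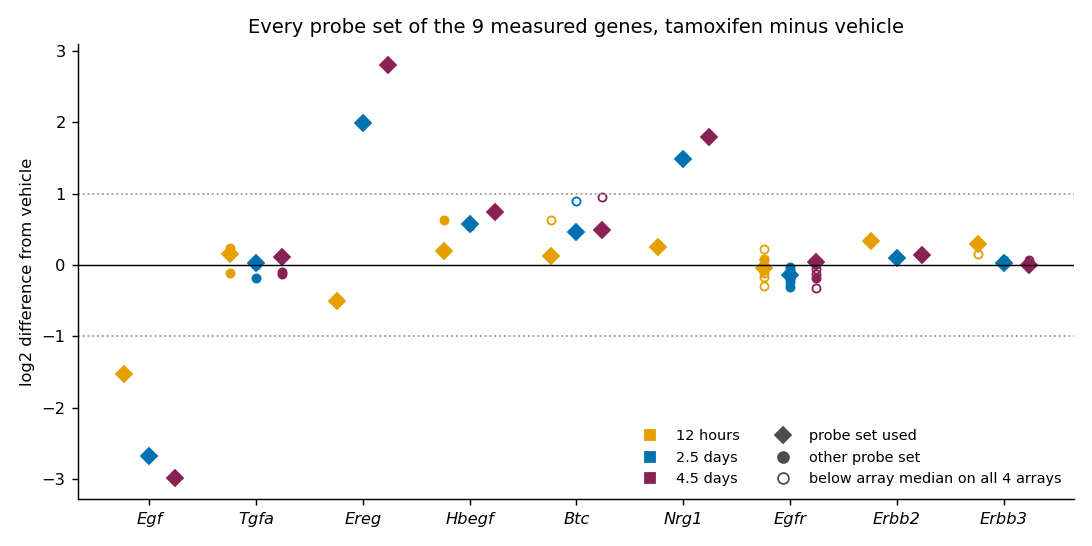
The log2 difference of each tamoxifen array from the vehicle array (vertical axis) is plotted for every probe set of the 9 measured genes, by time (colour), with the probe set used as a diamond, other probe sets as circles and open symbols for probe sets below the array median on all 4 arrays; dotted lines mark 2-fold. Only Egf, Ereg and Nrg1, each with a single probe set, pass 2-fold, and the probe sets of Hbegf and Btc lie above 0 at all times.

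The family genes outside the rule, Epgn, Nrg2, Nrg3, Nrg4 and Erbb4, were all below the array median on all 4 arrays. Their differences from vehicle lay between -0.48 and 0.25, with none past 2-fold. With such dim signals, these arrays do not show whether the genes are expressed in the corpus.

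RNA was measured for 10 genes of sheddases, the proteins that release the ligands, and of their partners, and none passed 2-fold at any time. Adam17, which encodes the main sheddase of several EGFR ligands, was at -0.06, 0.30 and 0.44 from vehicle at 12 hours, 2.5 and 4.5 days. Adam10, which encodes the sheddase of EGF and betacellulin, was at 0.11, 0.22 and 0.24, and its 4 probe sets ranged from -0.24 to 0.43 at 2.5 days. Rhbdf2, whose product iRhom2 carries ADAM17 to the cell surface, was at 0.40, 0.28 and 0.67. The rhomboid protease gene Rhbdl2 was at 0.57, 0.51 and 0.62, and its 3 probe sets ranged from -0.05 to 0.62 at 4.5 days. The medians of this list were 0.08, 0.19 and 0.20.

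Of 20 inhibitors of the receptors and of ERK signalling, by the probe sets used, 1 was at least 2-fold higher and 1 lower at 12 hours. At 2.5 and at 4.5 days 1 was higher. Of all expressed genes 0.996% were higher and 1.92% lower at 12 hours, and 3.32% and 3.80% were higher at 2.5 and 4.5 days. Counts of 1 among 20 genes do not set the list apart from these shares. The list had medians of 0.07, 0.16 and 0.25. The ERK phosphatase genes Dusp4 and Dusp6 went opposite ways at 12 hours, at 1.23 and -1.29, and at 2.5 days they were at 0.13 and -0.90. Dusp6 was at 8.04, 8.44 and 8.66 after tamoxifen, against 9.34 in vehicle, below it on all 3 arrays. Ptpn2, a tyrosine phosphatase gene, was at 0.19, 1.01 and 1.09, and its 4 probe sets ranged from 0.53 to 1.31 at 4.5 days. Errfi1, which encodes the EGFR inhibitor MIG6, was at 0.73, 0.61 and 0.37. Lrig1, which encodes a membrane protein that promotes receptor breakdown, was at -0.67, -0.10 and -0.11.

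Of 13 ERK target genes, 3 were at least 2-fold higher at 12 hours, 2 at 2.5 days and 6 at 4.5 days, and none was at least 2-fold lower. The share of all expressed genes at least 2-fold higher was 0.996%, 3.32% and 3.80% at these times. The list had medians of 0.43, 0.83 and 0.80. At 12 hours 4 of the 13 genes were below vehicle and at 2.5 days 3 were, while at 4.5 days all 13 were above it. Dusp6, which was below vehicle on all 3 arrays, was counted among the inhibitors and not here. The transcription factor gene Egr1 was at 11.17, 11.10 and 10.75 after tamoxifen, against 9.21 in vehicle. Fosl1, which encodes the AP-1 subunit FRA1, was at 7.21, 7.05 and 7.41, against 6.12 in vehicle. Myc was likewise above vehicle on all 3 arrays, by 1.09, 1.09 and 1.17. Plaur, the urokinase receptor gene, was at 0.62, 0.84 and 1.21, Ier3 at 0.63, 0.83 and 1.07, and Junb at 0.92, 0.97 and 1.02. Fos itself stayed at -0.05, -0.06 and 0.20. Etv4 was at -0.06, -0.01 and 0.69, Etv5 at -0.15, 0.39 and 0.68, and Phlda1 at -0.002, -0.08 and 0.46. These genes respond to many signals besides EGF receptors, and of 7 macrophage markers 1, 4 and 1 were at least 2-fold higher at 12 hours, 2.5 and 4.5 days, with summed levels of 11.52, 11.98 and 11.98 against 11.38 in vehicle. Of 5 mast cell markers 1, 1 and 3 were at least 2-fold higher, and Kit was lower at 4.5 days, with summed levels of 9.28, 9.21 and 10.22 against 9.14. The marker higher at 12 hours and 2.5 days was Mcpt1, at 4.86 and 4.79 against 3.38 in vehicle, below the median of each of these arrays. The 6 smooth muscle markers had medians of -0.45, -0.81 and -0.71 with none past 2-fold, and the 5 endocrine ones -0.10, 0.29 and -0.36 with 2 at least 2-fold lower at 4.5 days. The part of these cells in the values of the ERK targets, of Ereg and of Nrg1 was not tested.

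Adaptors and kinases between the receptors and ERK or AKT showed no member past 2-fold among 21 measured at any time, with medians of -0.06, -0.10 and -0.14. The widest differences belonged to Pik3r1, a regulatory subunit gene of PI3 kinase, at -0.67 at 4.5 days, and to Grb7 and Stat3, both at 0.43 at 12 hours. For Pik3r1 the 4 probe sets ranged from -0.67 to 0.11. Among 8 co-factors of the receptors, Cd44 passed 2-fold at 4.5 days, at 1.04, with its 4 probe sets between -0.15 and 1.54. Of 13 genes of other growth factor systems none passed 2-fold at 12 hours or 2.5 days by the probe sets used. At 4.5 days Igf1 was higher, at 1.05, and Kit lower, at -1.14. Of all expressed genes 3.80% were at least 2-fold higher and 2.72% lower at 4.5 days. The probe sets of these genes disagreed in size at 4.5 days, from 0.02 to 1.05 for the 4 of Igf1 and from -1.14 to -0.43 for the 2 of Kit. Those of Kitl, 4 in number, ranged from 0.11 to 1.36 at 12 hours, so not all of them stayed within 2-fold.

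**Figure D4:**
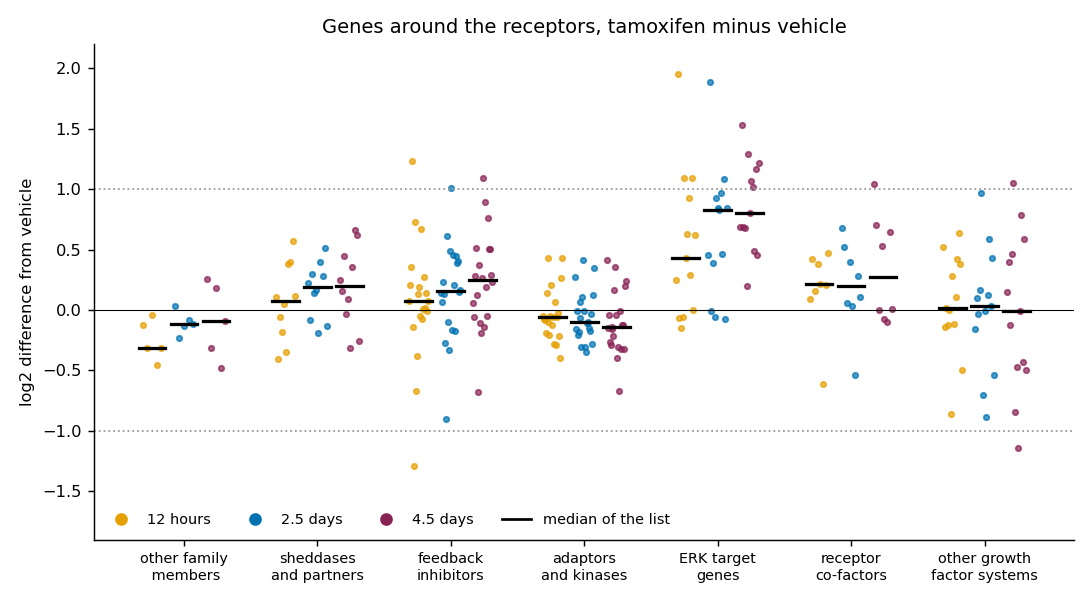
For 7 lists of genes around the receptors (horizontal axis), each point is the log2 difference of 1 gene between a tamoxifen array and the vehicle array (vertical axis), coloured by time, with the median of the list as a black bar and dotted lines at 2-fold. The medians of the ERK targets lie at 0.43, 0.83 and 0.80, while those of the other lists lie between -0.31 and 0.27.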

How the data were processed

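RNA of the gastric corpus was measured on 4 one-colour Affymetrix mouse arrays. Per the labels' protocols, RNA pooled from 3 mice per array was amplified and labelled with biotin. Per the submitters' processing notes the authors used RMA and Partek (versions not given in the sources used here), and the deposited log2 values cover 45101 probe sets. No label gives the log base, and a range of 2.06 to 14.85 was taken to mean log2. Quantile normalization within RMA hides a shift shared by most genes.

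By the platform annotation 34945 probe sets, controls left out, had exactly 1 gene symbol and gave 18193 genes. Where several probe sets carried a symbol, the brightest on average was used and the others were reported beside it. Differences were counted at or past 2-fold, and no test was possible with 1 array per group, so the number of arrays limits the precision. Likeness in pattern was the Euclidean distance between the 3 differences from vehicle, and the 3 nearest expressed genes were named for each member past 2-fold. Beside the members, the rule named the list genes past 2-fold or otherwise up to 4 with the widest differences, and some further genes, such as Adam10, Lrig1 and Fos, were chosen after their values were seen. The members and the 20 gene lists, 7 of pathways and 13 of cell types, were chosen with earlier results of these data known. Of 170 list entries 161 were measured, and the others are not analysed here. The functions were tested on simulated data. Python 3.11.15, numpy 2.4.6 and pandas 2.3.3 were used. The alternatives tried were other ways to combine probe sets, members above the array median only, 1.5-fold and 3-fold thresholds, and centring on hybridisation controls or on array medians.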

Additional observations from a re-analysis of the deposited data

Results flagged for a closer look

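The difference from vehicle had opposite signs at different times for 2 of the 9 genes, which with 1 array per time was not tested. Ereg was at -0.51 at 12 hours and at 1.99 and 2.80 at 2.5 and 4.5 days. Egfr was at -0.039 and -0.15 at 12 hours and 2.5 days and at 0.043 at 4.5 days, all within the robust SD of 0.15 between the most alike arrays.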

How the results depend on the processing

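Over 43 recomputations of the counts and medians of the EGF family, 40 stayed within 1.5 times the reported count or within 0.15 of the reported median. The exceptions were a 3-fold threshold at 12 hours, which left 0 genes in place of 1, a 1.5-fold threshold from 2.5 to 4.5 days, which gave 1 gene (Ereg) in place of 0, and centring on the hybridisation controls at 4.5 days, which gave a median difference of 0.30 in place of 0.13, because these controls themselves lay 0.16 lower there than in vehicle. Part of the 40 could not change. All 9 genes were expressed at 2.5 and 4.5 days and in the step from 12 hours to 2.5 days. Keeping only members above the array median therefore repeated the reported values there. Egf, Ereg and Nrg1 have 1 probe set each, so other ways to combine probe sets could not remove them from the counts. Leaving out the 12-hour array, a choice made after seeing the data, left the number of genes past 2-fold on any tamoxifen array at 3. This count could not change, because each of these genes also passed 2-fold at 2.5 days, so it is no check. For single genes 49 of 54 recomputations stayed within 0.15. These include all those of Egf, Ereg, Nrg1 and Erbb2, which could not change since each has 1 probe set. The other 5 used the mean over probe sets. They gave 0.41 for Hbegf at 12 hours, 0.38, 0.68 and 0.72 for Btc at 12 hours, 2.5 and 4.5 days, and -0.04 for Tgfa at 4.5 days. No paired analysis was possible because each group is 1 array. Signal over background limits Egf at 2.5 and 4.5 days and Nrg1 in vehicle and at 12 hours, which lay below the array median.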
